A study of Mus musculus with 6 samples.

Results

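Cell cycle and proliferation genes were examined in the left ventricle of pressure-overloaded mice: 47 genes chosen by name from the deposited table of gene counts. All 47 were among the 54532 genes of that table, and all 47 were also among the 14774 genes that had enough counts to be tested. By role, 9 were G1 cyclins, kinases and E2F, 3 were inhibitors of cyclin-dependent kinases (CDK inhibitors), 13 belonged to S phase and 22 to G2 and mitosis. The rule used gene names and no measured value.

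The samples were 6 RNA-seq libraries of left ventricular tissue, 3 from HINT2-transgenic mice (TG, labelled HINT2CTG-Myh6Cre) and 3 from non-transgenic mice (NTG, labelled C57BL/6J). Both groups had undergone aortic banding (AB), a constriction of the aorta that loads the left ventricle with pressure, and hearts were taken 4 weeks later. The mice were males of 8 to 10 weeks of age at surgery. TG mice carried human HINT2, a mitochondrial protein of the histidine triad family, under a CAG promoter that a floxed stop cassette keeps silent. The cassette was removed by Cre under the cardiomyocyte promoter Myh6, after tamoxifen at 5 mg/kg per day for 7 days. Whether NTG mice carried Cre or received tamoxifen is not stated in the sources used here. The transgene, Cre and tamoxifen can therefore not be told apart in this comparison, and no sham-operated hearts were analysed here. The study's methods count the samples of a group as mice, whereas the labels only number them.

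Cells enter the cycle when D-type cyclins with CDK4 or CDK6 phosphorylate the retinoblastoma protein and release E2F, which switches on the genes of DNA replication. Cyclin A and cyclin B with CDK1 then drive G2 and mitosis, and CDK inhibitors of the p21 and p27 family hold the kinases back. Most cardiomyocytes of the adult mouse have left the cycle, and pressure overload enlarges them, while fibroblasts, endothelial cells and immune cells of the same tissue can divide. In bulk tissue, a lower level of a gene can come from fewer cells that express it or from less of its RNA per cell, and these cannot be told apart.

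Libraries held between 14863568 and 17581220 counts. Hint2, the mouse gene, had 12 counts in NTG 1, 545 in NTG 2 and 559 in NTG 3, and 793, 828 and 859 in TG 1, TG 2 and TG 3. NTG 1 therefore lay far below its own group, and whether this library matches its label was not settled here. It was kept as labelled, so that every NTG mean and every fold change includes it, and values without it are given where a result rests on it. A principal component analysis of all genes tested placed NTG 1, on its first axis (52.3% of the variance), at -5.08, nearer to the TG hearts (-36.5 to -10.7) than to NTG 2 (55.7) and NTG 3 (29.3). Atrial transcripts differed between the ventricles: Myl7, an atrial myosin light chain, was between 0 and 1.59 CPM (counts scaled to library size) in NTG 2, NTG 3 and TG 1, and was 19.5 in NTG 1, 7.67 in TG 2 and 64.4 in TG 3. Myl4 and Sln were high in the same hearts as Myl7. Nppa, also listed as an atrial marker, was not: it had 754, 1394 and 1400 CPM in NTG and 172, 867 and 268 in TG. The markers of working cardiomyocytes were high in all 6, with a summed level of 18354 CPM or more, and all 7 had a log2 fold change above 0 (median 0.53, 2 of them at an unadjusted p under 0.05). All 5 tested erythroid markers were below 0 at that threshold, with a median of -1.05, and 4 of them had no overlap between the groups.

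No cell cycle gene passed the test between TG and NTG. A gene was called when its adjusted p was under 0.05 and its log2 fold change was over 0.5 in size, by the quasi-likelihood test of edgeR and the Benjamini-Hochberg method over all genes tested. By that rule 0 of 47 were called, and so were 0% of the 14774 genes. The smallest adjusted p in this edgeR test was 0.198 among the 47 and 0.196 among all genes. DESeq2, run as an alternative, called 228 genes higher and 355 lower in TG (3.95% of all tested), and 0 of the 47. At an unadjusted p under 0.05, edgeR found 2 cell cycle genes higher in TG, Mcm2 and Mcm5, and 2 lower, Tyms and Cdk6. These 4 of 47 stand beside 18.6% of all genes tested (8.83% higher, 9.76% lower). The 3 TG hearts lay wholly above the 3 NTG hearts for 2 genes, Mcm2 and Tk1, and wholly below for 2, Tyms and Rrm1, beside 11.2% and 12.3% of all genes, 23.5% together. Neither count was higher than the share over all genes. Leaving out NTG 1 gave 8 of 47 at an unadjusted p under 0.05, beside 27.0% of all genes, and leaving out TG 2 gave 5 of 47, beside 19.3%.

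The median log2 fold change of the 47 genes was -0.07, with 20 above 0 and 27 below, and that of all genes was -0.01. By role it was 0.16 for the G1 genes, 0.05 for the CDK inhibitors, -0.04 for S phase and -0.12 for G2 and mitosis. Leaving out single hearts moved these medians to unlike degrees, most in G2 and mitosis. Without NTG 1 they were 0.02, -0.05, -0.04 and -0.31 in the same order, and without TG 2 they were -0.07, 0.13, -0.14 and -0.49. The spread of log2 CPM within a group, as a median standard deviation (SD), was 0.46 in G2 and mitosis, 0.27 in S phase, 0.21 in G1 and 0.20 in the inhibitors, beside 0.21 over all genes. The mitosis genes were thus the role with the largest spread within a group. They also had low counts: the 22 genes summed to 1467 to 2779 counts per heart, and the 3 inhibitors to 4811 to 6637. The part of counting noise in this spread was not tested.

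**Figure D1:**
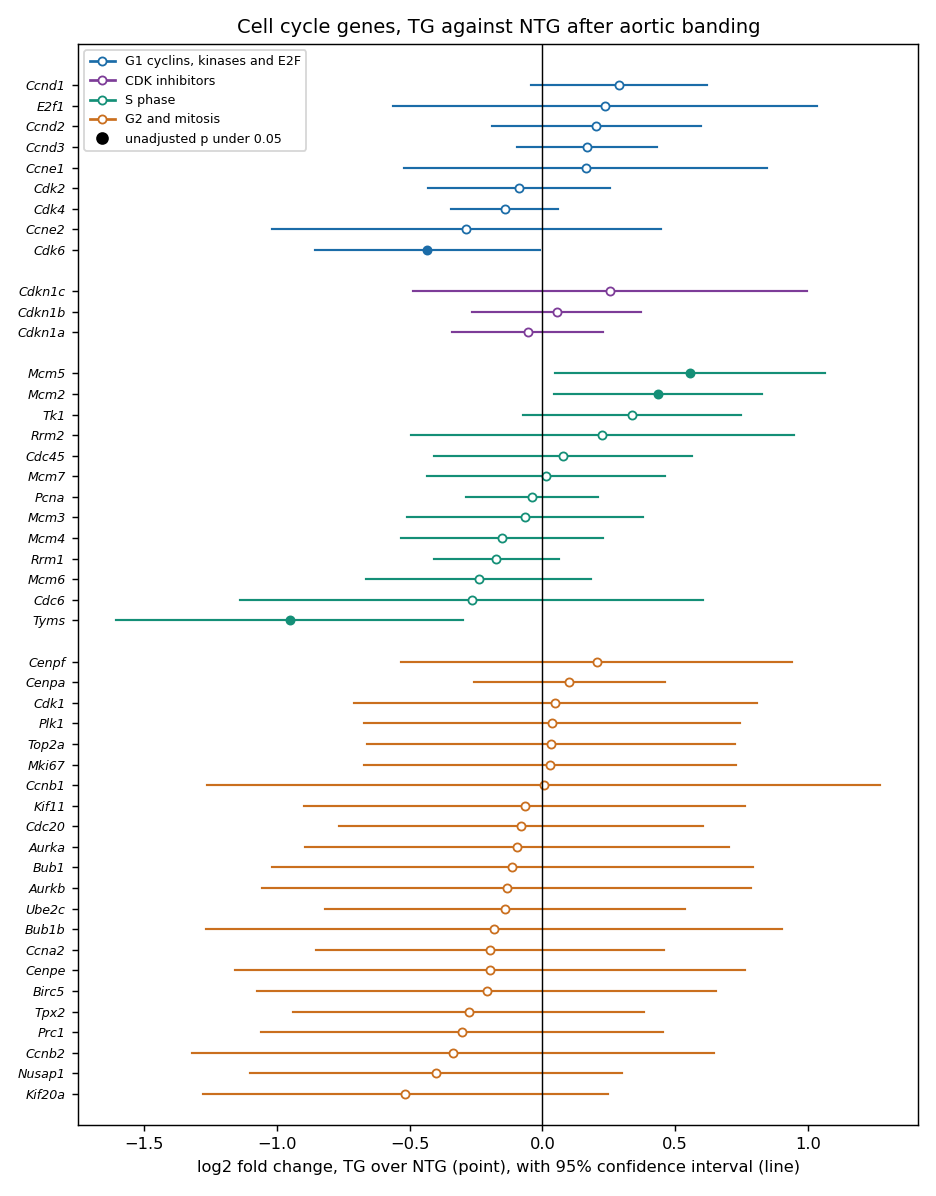
Log2 fold change of each of the 47 genes, TG over NTG (points), with its 95% confidence interval (lines), coloured by role. Filled points mark an unadjusted edgeR p under 0.05, which only Tyms, Mcm2, Mcm5 and Cdk6 had; the interval of every other gene includes 0.

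None of the CDK inhibitors passed the test, and one of them was the most abundant of all 47 per length. Cdkn1a (p21), which p53 induces, had 272, 294 and 333 CPM in NTG 1, NTG 2 and NTG 3, and 305, 300 and 260 in the TG hearts in the same order. The TG values lay within or just below the range of the NTG values. Its log2 fold change was -0.06 ± 0.12 (SE), with a 95% interval from -0.34 to 0.23. Per kilobase of the deposited gene length its mean level was 82.8 RPKM, the highest of the 47.

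Cdkn1b (p27), which holds CDK2 in resting cells, had 34.1, 47.8 and 39.0 CPM in NTG and 43.3, 37.5 and 44.8 in TG. All TG values fell inside the NTG range, and the log2 fold change was 0.05 ± 0.14 (SE). Cdkn1c (p57), an imprinted inhibitor, had 22.0, 8.71 and 12.3 CPM in NTG and 17.7, 15.1 and 18.2 in TG. NTG 1 was the highest of the 6 hearts and NTG 2 the lowest, and the TG hearts lay between them. Its log2 fold change was 0.26 ± 0.32 (SE), with an interval from -0.49 to 1.0. Without NTG 1 the value was 0.70 (edgeR adjusted p = 0.062), where DESeq2 called it with an adjusted p of 0.022, and without NTG 2 it was -0.01, so that these 2 hearts decide its direction and size. Cdkn1c shares 30.7% of its exon bases with a gene on the other strand, and whether the authors counted by strand is not stated in the sources used here.

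The D-type cyclins, which couple growth signals to the cycle, each had a TG mean above the NTG mean, and none passed the test. Ccnd1 had 110, 98.1 and 133 CPM in NTG and 124, 159 and 133 in TG. NTG 3 and TG 3 were nearly equal, so the groups overlapped, and TG 2 was the highest. Its log2 fold change was 0.29 ± 0.14 (SE), with an interval from -0.04 to 0.62, and it ran from 0.18 without TG 2 to 0.42 without NTG 3 (unadjusted p of 0.024, edgeR adjusted p = 0.395). Ccnd1 shares 23.4% of its exon bases with a gene on the other strand, LTO1. Ccnd2 had 228, 145 and 175 CPM in NTG and 211, 232 and 188 in TG, and Ccnd3 had 90.3, 69.6 and 79.5 in NTG and 93.2, 92.9 and 83.0 in TG. In both genes NTG 1 lay among the TG hearts, and NTG 2 was the lowest of the 6. Their log2 fold changes were 0.20 ± 0.17 and 0.17 ± 0.11 (SE). Without NTG 1 they were 0.39 and 0.26, both with an unadjusted p under 0.05 and neither called, and without NTG 2 they were 0.06 and 0.08.

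Among the kinases of G1, Cdk6 and Cdk4 had lower means in TG than in NTG, and neither passed the test. Cdk6 (GRCm38 chromosome 5, 3341485 to 3531008) had 23.6, 39.2 and 29.9 CPM in NTG and 22.5, 21.0 and 25.2 in TG. NTG 2 and NTG 3 were above every TG heart, and NTG 1 was not. The means were 30.9 ± 7.89 and 22.9 ± 2.14 CPM (SD, n = 3 each). The log2 fold change was -0.43 ± 0.18 (SE), with an unadjusted p of 0.047 and, in the edgeR test, an adjusted p = 0.262. Leaving out one heart moved it between -0.60 without NTG 1 (edgeR adjusted p = 0.055) and -0.22 without NTG 2 (edgeR adjusted p = 0.603). DESeq2 called it without NTG 1, with an adjusted p of 0.022, where it called 11.7% of all genes.

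Cdk4 had 46.1, 52.5 and 50.7 CPM in NTG and 46.4, 44.6 and 44.3 in TG, a log2 fold change of -0.14 ± 0.09 (SE). NTG 1 again lay among the TG hearts, and the other NTG hearts were above all of them. Cdk4 shares 19.7% of its exon bases with Tspan31 on the other strand. The other G1 genes, Cdk2, Ccne1, Ccne2 and E2f1, had log2 fold changes from -0.29 to 0.23. E2f1, the activator of replication genes, ranged from 2.18 CPM in NTG 1 to 5.57 in TG 2, a 2.55-fold range that the groups shared.

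Fibroblast markers, like Cdk6, were highest in NTG 2 and NTG 3. Their summed level, over 8 genes, was 4709, 10852 and 6760 CPM in NTG and 2616, 4017 and 2317 in TG. Within TG the order was the reverse of that of Cdk6, which was lowest in TG 2 and highest in TG 3. All 8 had a log2 fold change below 0, 6 of them at an unadjusted p under 0.05, and none was at 0 in any heart. Macrophage and monocyte markers were below 0 for 9 of 10, with summed levels of 550 to 1025 CPM in NTG and 405 to 570 in TG. Neutrophil markers were below 0 for all 4 tested. They summed to 9.15, 241 and 36.7 CPM in NTG and 13.7, 8.36 and 16.4 in TG. Like Cdk6, they were highest in NTG 2 and NTG 3 and lowest in TG 2, and NTG 1 lay among the TG hearts. The part of these cells in the level of Cdk6 was not tested.

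S phase held 3 of the 4 genes with an unadjusted p under 0.05, in both directions, which are 3 of its 13 genes beside 18.6% of all genes tested. Tyms, thymidylate synthase, which makes the dTMP used in DNA, had the largest difference of the 47. It lies on chromosome 5 from 30058202 to 30073617 on the minus strand. Its level was 6.35, 9.29 and 8.33 CPM in NTG 1, NTG 2 and NTG 3, and 4.04, 5.63 and 2.72 in TG 1, TG 2 and TG 3. Every NTG heart was above every TG heart, with NTG 1 the lowest of its group. These levels rest on 93 to 175 counts in NTG and 44 to 99 in TG. The means were 7.99 ± 1.5 and 4.13 ± 1.46 CPM (SD, n = 3 each). The log2 fold change was -0.95 ± 0.28 (SE), with an interval from -1.60 to -0.30, an unadjusted p of 0.0099 and, in the edgeR test, an adjusted p = 0.198.

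Leaving out any one heart kept Tyms lower in TG, between -1.25 and -0.72 on the log2 scale. With all 6 hearts its adjusted p was 0.054 by DESeq2, 0.058 by edgeR without a filter on low counts, 0.061 by the likelihood-ratio test and 0.096 to 0.214 in the other alternatives. DESeq2 called it only when NTG 1 or TG 2 was left out, with an adjusted p of 0.018 and 0.0094, in settings where 11.7% and 5.17% of all genes were called. Over the 6 hearts Tyms had the same order as the summed fibroblast markers, from NTG 2 down to TG 3. The macrophage markers were also highest in NTG 2, but among the TG hearts they were highest in TG 3, where Tyms was lowest. Their part in its level was not tested.

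Mcm2 and Mcm5 encode subunits of the MCM helicase, the ring that unwinds DNA at replication origins. Mcm2 (chromosome 6, 88883474 to 88898780, minus strand) had 10.2, 7.38 and 9.31 CPM in NTG and 11.0, 13.8 and 11.5 in TG. The groups did not overlap, although NTG 1 lay close to TG 1. The log2 fold change was 0.43 ± 0.17 (SE), with an interval from 0.04 to 0.83 and, in the edgeR test, an adjusted p = 0.232.

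Mcm5 (chromosome 8, 75109569 to 75128439, plus strand) had 6.14, 4.20 and 5.21 CPM in NTG and 6.06, 8.93 and 7.78 in TG. NTG 1 was just above TG 1, so the groups overlapped. The log2 fold change was 0.56 ± 0.22 (SE), with an interval from 0.05 to 1.06 and, in the edgeR test, an adjusted p = 0.235. These 2 subunits did not stand for the whole helicase: Mcm3, Mcm4 and Mcm6 had log2 fold changes of -0.06, -0.15 and -0.24, and Mcm7 had 0.01. The 6 subunits work as one ring, and their differences here ran from -0.24 to 0.56 with none called. Without NTG 1, Mcm2, Mcm5 and Mcm6 were at 0.53, 0.69 and -0.40, each with an unadjusted p under 0.05 and none called.

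The other S phase genes were spread around 0. Tk1, thymidine kinase, had 4.10, 4.35 and 4.11 CPM in NTG and 4.98, 5.51 and 5.37 in TG. Its groups did not overlap, and the log2 fold change was 0.34 ± 0.18 (SE). Rrm1, the large subunit of ribonucleotide reductase, had 20.8, 22.2 and 22.0 CPM in NTG and 18.6, 20.1 and 19.0 in TG, again without overlap, at -0.17 ± 0.10. Tk1 and Tyms, which both supply dTMP, thus had differences of opposite sign. Pcna, the sliding clamp of the polymerases, was the most abundant S phase gene per length (17.1 RPKM) and had a log2 fold change of -0.04 ± 0.11 (SE), with an interval from -0.29 to 0.21. Cdc6, Cdc45 and Rrm2 had log2 fold changes from -0.27 to 0.22.

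**Figure D2:**
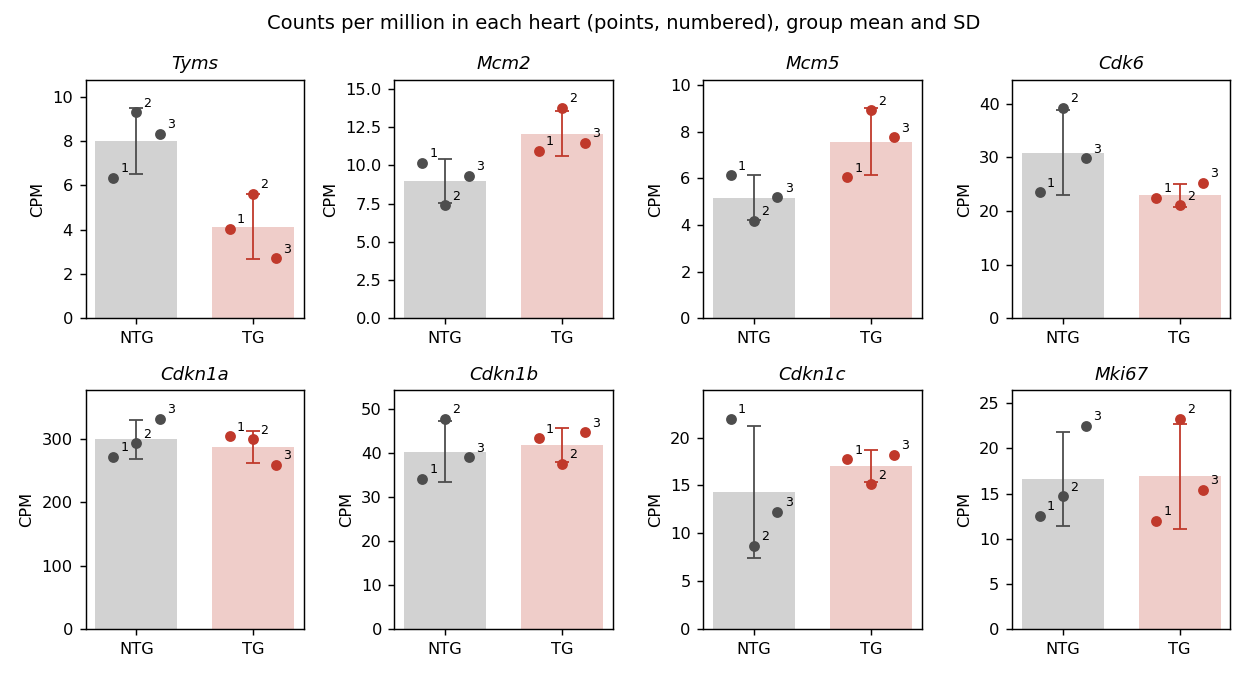
CPM of Tyms, Mcm2, Mcm5, Cdk6, the 3 CDK inhibitors and Mki67 in each heart (points, numbered as in the labels), with group means (bars from 0) and SD (error bars, n = 3). Tyms and Mcm2 show no overlap between groups, and in Mki67 the group means of 16.6 and 16.9 CPM are nearly equal while single hearts range from 12.0 to 23.3.

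No gene of G2 and mitosis passed the test between TG and NTG. Of the 22, none had an unadjusted p under 0.05, none had groups without overlap, 15 had a log2 fold change below 0 and 7 above. Mki67, the Ki-67 protein of cycling cells, had 12.6, 14.7 and 22.5 CPM in NTG and 12.0, 23.3 and 15.4 in TG. Both groups held low and high hearts. The log2 fold change was 0.03 ± 0.30 (SE), and its 95% interval, from -0.67 to 0.73, includes differences of either sign. Top2a, the topoisomerase that untangles replicated DNA, had 9.22, 14.1 and 14.4 CPM in NTG and 9.02, 18.6 and 10.8 in TG, with a log2 fold change of 0.03 ± 0.30.

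The largest difference among the mitosis genes was in Kif20a, a kinesin of cytokinesis, with 2.53, 4.20 and 4.28 CPM in NTG and 1.80, 3.58 and 2.28 in TG. NTG 1 and TG 2 crossed, and the log2 fold change was -0.52 ± 0.33 (SE). Nusap1 and Tpx2, which both bind spindle microtubules, had -0.40 ± 0.31 and -0.28 ± 0.29 (SE). Without TG 2 the log2 fold changes of Kif20a, Nusap1 and Tpx2 were -0.84, -0.72 and -0.63, and without TG 1 they were -0.33, -0.23 and -0.12. Without TG 2, Kif20a, Tpx2, Prc1 and Ccnb2 had an unadjusted p under 0.05, and none was called. Ccnb2 then had the largest value of the 4, -0.93 against -0.34 with all 6 hearts, and Prc1 was at -0.71 against -0.30. Cenpa, the histone of centromeres, was the most abundant of this role per length (5.85 RPKM), with a log2 fold change of 0.10 ± 0.16. Unlike most of the role, it was highest in TG 1 (39.7 CPM) and lowest in NTG 2 (26.6). Ccnb1, cyclin B1, had the lowest single count, 11 in NTG 1, and ranged 4.47-fold between hearts. The other 15 had log2 fold changes from -0.34 (Ccnb2) to 0.20 (Cenpf). They were the cyclins and their kinase (Ccna2, Ccnb2, Cdk1), the mitotic kinases (Aurka, Aurkb, Plk1, Bub1, Bub1b), Birc5 of the passenger complex, Cdc20 and Ube2c of the anaphase ubiquitin ligase, the kinetochore genes Cenpe and Cenpf, and Kif11 and Prc1 of the spindle. Kif20a shares 29.3% of its exon bases with a gene on the other strand, Cdc23, and Ube2c shares 22.8% with Tnnc2, a muscle troponin gene. The Kif20a share is that of its model in GENCODE release M21, whose exon length differs from the deposited length of 3796 bases.

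Within each group, the mitosis genes were high in the same hearts and low in the same hearts. In TG, 20 of 22 were highest in TG 2 (90.9%), beside 35.3% of all genes tested. In NTG, 18 of 22 were highest in NTG 3 (81.8%, all genes 27.2%) and 18 of 22 were lowest in NTG 1 (81.8%, all genes 37.1%). All 22 were higher in TG 2 than in TG 3, which carry the same label.

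The mean deviation of these 22 genes from their own mean over the 6 hearts, on the log2 CPM scale, was -0.28 in NTG 1, 0.09 in NTG 2 and 0.40 in NTG 3. In TG 1, TG 2 and TG 3 it was -0.37, 0.43 and -0.28. Each group thus held hearts on both sides of 0, and the range within either group exceeded the median difference between groups of -0.12. The highest and the lowest heart of a gene differed between 1.48-fold in Plk1 and 4.47-fold in Ccnb1. Genes of one heart share a library, so these counts describe 6 libraries and are no test.

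A second list of 62 tested mitosis genes, none among the 22, followed the same hearts. Their mean deviations were -0.24, 0.10 and 0.23 in NTG 1, NTG 2 and NTG 3 and -0.28, 0.30 and -0.11 in TG 1, TG 2 and TG 3. The S phase genes followed in part: 12 of 13 were highest of their group in TG 2, with a mean deviation of 0.24 there, while NTG 3 was at -0.03. The G1 genes stayed between -0.10 and 0.10.

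Some other properties of the libraries moved with the mitosis genes, and others did so in part or not. The share of counts from the mitochondrial genome was 19.2% in NTG 1, 21.5% in TG 1 and 20.3% in TG 3, the 3 hearts with a negative mean deviation, and 13.4%, 14.3% and 16.0% in NTG 2, NTG 3 and TG 2. NTG 1 and TG 1 also had the smallest total counts, while TG 3 and NTG 3 had nearly equal totals. Cardiomyocyte markers divided the hearts in the same way: their summed level was 31138 CPM in NTG 1, 36985 in TG 1 and 35625 in TG 3, and 18354, 24872 and 29784 in NTG 2, NTG 3 and TG 2. Of 6 thymocyte genes, which mark dividing cells of the nearby thymus, Rag2 and Dntt had 0 counts in all 6 hearts and Rag1 and Ptcra at most 1. Cd8b1, which mature T cells also express, had 10, 15 and 1 counts in NTG and 3, 15 and 31 in TG. Cd1d1, which other cell types also express, had 22, 22 and 12 counts in NTG and 39, 43 and 44 in TG, without overlap, at a log2 fold change of 1.25 ± 0.33 (SE) and an edgeR adjusted p of 0.196. The fibroblast markers given above were likewise lowest of NTG in NTG 1 and highest of TG in TG 2, but highest of all in NTG 2. Lymphocyte markers summed to 4.57 to 14.3 CPM and were lowest in NTG 3, where mitosis genes were high. Endothelial markers had mean deviations of -0.08, -0.12 and 0.06 in NTG and 0.06, 0.10 and -0.03 in TG. Their sign was that of the mitosis genes except in NTG 2 and TG 1. The part of the mitochondrial share, of the cell type markers and of depth in the pattern was not tested.

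**Figure D3:**
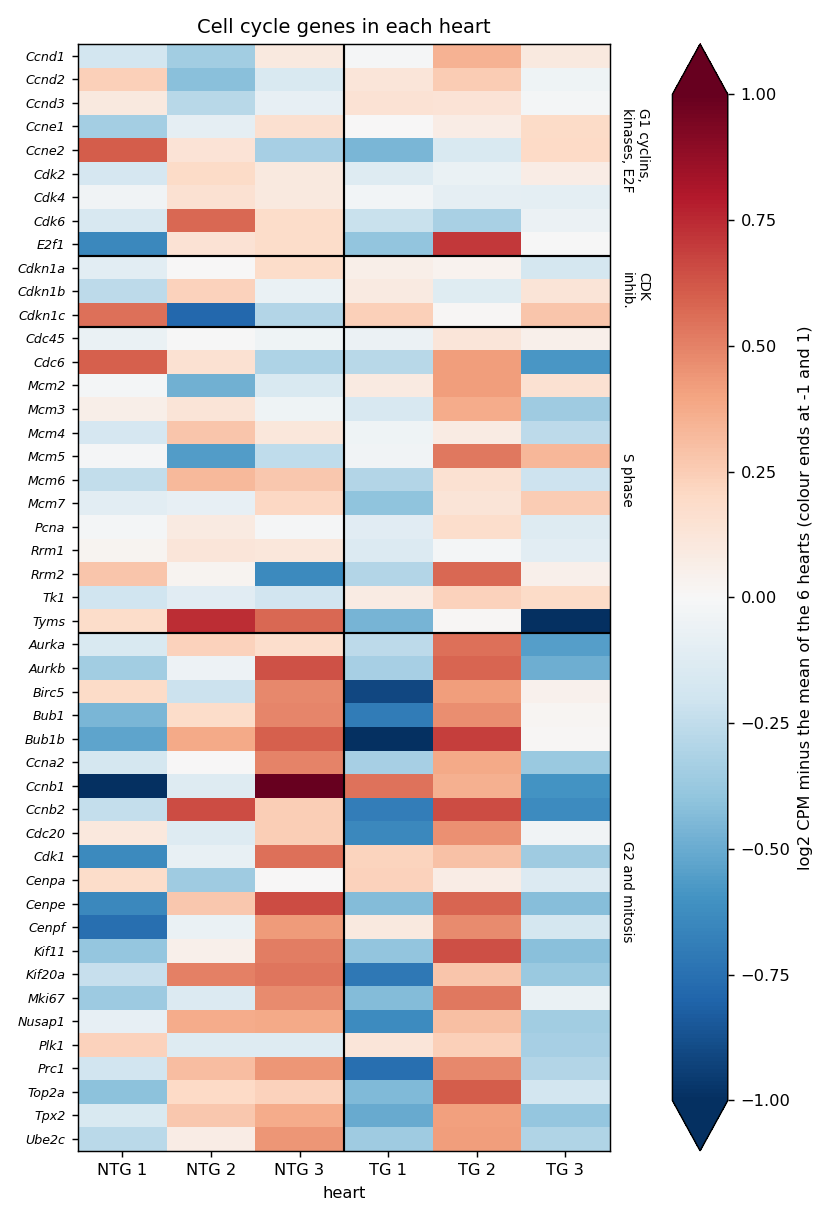
Log2 CPM of each gene minus its mean over the 6 hearts (colour, from -1 in blue to 1 in red), with hearts as columns and genes as rows grouped by role. Among the 22 mitosis genes, NTG 3 and TG 2 are mostly red and NTG 1, TG 1 and TG 3 mostly blue, so that each group holds both colours.

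**Figure D4:**
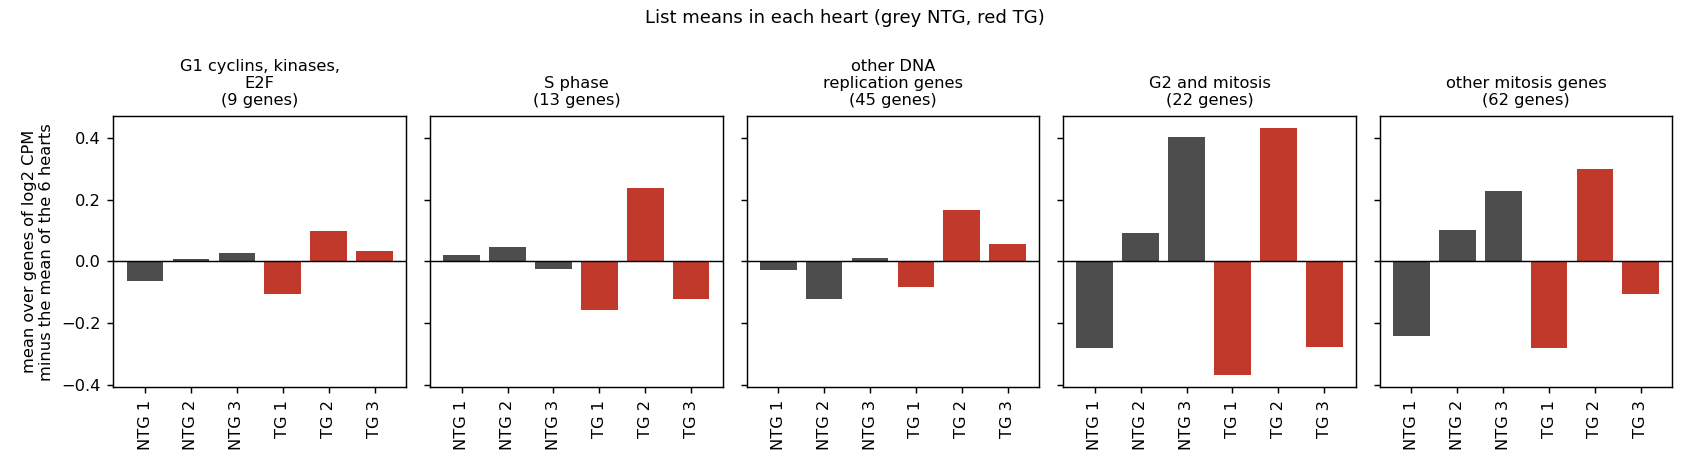
Mean deviation of each list from its own mean over the 6 hearts, on the log2 CPM scale (bars; grey NTG, red TG). The 22 mitosis genes and the 62 further mitosis genes share their order of signs over the hearts, and the G1 genes stay within 0.10 of 0.

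Because the mitosis genes varied together, their promoters are shown. Many mitosis genes share a cell cycle genes homology region (CHR), which the DREAM and MuvB complexes bind, and CCAAT boxes, which NF-Y binds. RefSeq promoters (GRCm38.p6, 250 bases before to 50 after a start) were found for 38 of the 47 genes, 42 promoters in all, with none given for Cdkn1c, Ccnd1, Ccnd2, Ccne2, Mcm4, Ccna2, Aurkb, Kif20a and Tpx2. The CHR was searched on both strands by its letters TTTGAA and by those of a variant form that also occurs in such promoters, TTCGAA. One of the forms was in 15 of 19 mitosis promoters (78.9%) and in 19.2% of the 32851 promoters of the table. The letters CCAAT were in 17 of 19 (89.5%) and in 37.4% of all, but they were also in 10 of 13 S phase promoters (76.9%) and in 14 of 22 promoters of p53 targets (63.6%). In the further mitosis genes, the CHR letters were in 45 of 63 promoters (71.4%) and CCAAT in 41 (65.1%). None of the 7 promoters of the G1 genes and none of the 3 of the inhibitors held the CHR letters, while 12 of 31 promoters (38.7%) of further G1 regulators did.

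In capitals in the lines that follow are CHR and CCAAT letters on either strand, in windows of 220 bases from 200 before to 20 after the start. They are shown as examples of mitosis genes that were highest of TG in TG 2 and lowest of NTG in NTG 1, although Cdk1 in TG 1 (4.69 CPM) was close to TG 2 (4.95). The windows are cyclin B2 at chr9:70421535-70421754, CDK1 at chr10:69352893-69353112, Ki-67 at chr7:135716360-135716579 and Top2a at chr11:99024170-99024389, all on the minus strand.
Ccnb2: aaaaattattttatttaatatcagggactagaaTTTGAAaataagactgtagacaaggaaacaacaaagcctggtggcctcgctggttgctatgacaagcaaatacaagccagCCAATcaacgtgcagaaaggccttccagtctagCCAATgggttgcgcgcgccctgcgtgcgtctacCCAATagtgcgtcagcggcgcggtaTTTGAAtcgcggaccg
Cdk1: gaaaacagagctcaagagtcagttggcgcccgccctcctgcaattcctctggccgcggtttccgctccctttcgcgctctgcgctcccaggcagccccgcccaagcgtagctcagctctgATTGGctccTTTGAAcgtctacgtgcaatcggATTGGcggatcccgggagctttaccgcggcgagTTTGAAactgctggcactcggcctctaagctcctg
Mki67: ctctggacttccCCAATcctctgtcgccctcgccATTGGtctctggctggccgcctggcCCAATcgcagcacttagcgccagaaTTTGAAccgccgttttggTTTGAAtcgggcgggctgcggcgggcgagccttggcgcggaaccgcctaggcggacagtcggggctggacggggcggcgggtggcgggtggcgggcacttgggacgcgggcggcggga
Top2a: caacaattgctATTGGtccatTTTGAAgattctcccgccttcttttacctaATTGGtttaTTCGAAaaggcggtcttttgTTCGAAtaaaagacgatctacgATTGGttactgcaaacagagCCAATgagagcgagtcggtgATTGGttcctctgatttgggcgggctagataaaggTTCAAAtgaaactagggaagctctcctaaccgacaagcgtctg
Each held 2 or more CHR matches and 2 or more CCAAT matches. A match of letters is a description and was not tested for binding.

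For the S phase, the E2F site was searched on both strands in its form TTTGGCG. Further forms searched in the same way were TTTCCCG as the next one, TTTGCCG as another and TTTCGCG as the last. Any of the forms was in 5 of 13 S phase promoters (38.5%), in 3 of 19 mitosis promoters (15.8%) and in 6.70% of all promoters. In the wider lists they were in 22 of 50 promoters of other replication genes (44.0%), 14 of 31 of further G1 regulators (45.2%), 12 of 63 of further mitosis genes (19.0%) and 1 of 22 of p53 targets (4.55%). Mcm5 is shown as the S phase gene with the highest log2 fold change, at chr8:75109309-75109528 on the plus strand. Its capitals mark 2 E2F matches, which overlap each other, and 3 CCAAT matches.
Mcm5: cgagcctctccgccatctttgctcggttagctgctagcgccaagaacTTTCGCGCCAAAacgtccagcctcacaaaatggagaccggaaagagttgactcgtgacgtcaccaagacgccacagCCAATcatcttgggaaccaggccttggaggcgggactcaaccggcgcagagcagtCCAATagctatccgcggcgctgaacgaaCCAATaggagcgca
The promoters of Tyms and Cdk6 in the table held none of the E2F, CHR or CCAAT letters in this window.

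Levels per length differed widely between the roles. The inhibitors ranged from 7.69 to 82.8 RPKM as means over the 6 hearts, and the G1 genes from 0.49 (Ccne1) to 26.8 (Ccnd1). S phase genes ranged from 0.31 (Cdc6) to 17.1 (Pcna), and mitosis genes from 0.28 (Cenpe) to 5.85 (Cenpa). The median was 9.03 RPKM for the inhibitors, 1.92 for G1, 1.60 for S phase and 0.80 for mitosis. Behind Cdkn1a came Ccnd1 and Ccnd2 at 26.8 and 20.9 RPKM, whose ranges over the hearts overlapped, and then Pcna at 17.1 and Cdk4 at 14.6.

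**Figure D5:**
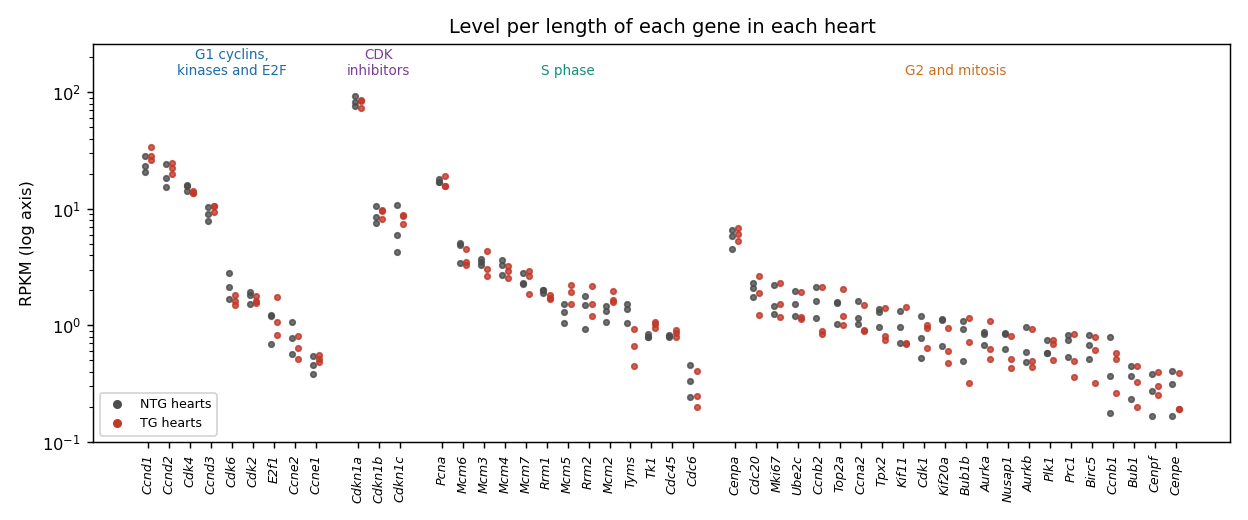
RPKM of each gene in each heart (points; grey NTG, red TG) on a log axis, genes ordered within a role by their mean. Cdkn1a is the highest at a mean of 82.8 RPKM, and the 2 colours overlap for nearly all genes.

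Wider lists of the same pathways were tested in the same fit, and none had a called gene. Of 45 tested genes of DNA replication beyond the S phase genes above, 5 were higher and 1 lower in TG at an unadjusted p under 0.05, with a median log2 fold change of 0.06. Pold2, a subunit of polymerase delta, had 15.8, 13.8 and 14.8 CPM in NTG and 20.6, 20.5 and 21.4 in TG, at 0.49 ± 0.11 (SE), and Dut, which clears dUTP, was at 0.59 ± 0.16. In both, every TG heart was above every NTG heart. Tipin and Orc2, of the fork and the origin, were at -0.47 ± 0.17 and -0.22 ± 0.13.

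Of the 62 further mitosis genes, 1 was higher and 1 lower at an unadjusted p under 0.05, with a median of -0.02. Spc24, a kinetochore subunit, was at 0.61 ± 0.24 (SE), and its partner Spc25 was at -0.64 ± 0.32. Trip13, an ATPase of the spindle checkpoint, was at -1.02 ± 0.44 with means of 1.18 and 0.58 CPM. Ccnf, cyclin F, was at 0.65 ± 0.38 with TG hearts overlapping NTG hearts.

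Among 30 further G1 regulators and members of the RB and E2F families, 2 were higher and 3 lower at that threshold, with a median of -0.03. E2f4, an E2F of resting cells, had 27.8, 31.1 and 31.8 CPM in NTG and 37.1, 35.1 and 35.5 in TG, at 0.25 ± 0.09 (SE). Mycn, a transcription factor of the Myc family, was at 1.5 ± 0.56 with 5.12, 1.17 and 1.74 CPM in NTG and 11.0, 5.57 and 5.86 in TG. Its 2 lowest hearts were NTG 2 and NTG 3, and NTG 1 lay close to TG 2. Cdk14 was at -0.56 ± 0.14 and Mnat1, which assembles the CDK-activating kinase, at -0.56 ± 0.16.

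Of 22 genes of p53 and its targets other than Cdkn1a, 1 was higher and 1 lower, with a median of -0.06. Bbc3 (PUMA), a trigger of apoptosis, was at 0.77 ± 0.24 (SE), and Zmat3 was at -0.42 ± 0.14, both without overlap of the groups. Gdf15, a stress cytokine, was at -1.33 ± 0.61 and ranged from 12.3 CPM in TG 1 to 118 in NTG 3. Ccng1 was at 0.23 ± 0.17. Over both directions, the shares at an unadjusted p under 0.05 were below the 18.6% of all genes in all 4 lists. By direction, the 5 of 45 replication genes that were higher and the 3 of 30 further G1 regulators that were lower lay just above the 8.83% and 9.76% of all genes.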

How the data were processed

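RNA was taken from left ventricular tissue of 3 TG and 3 NTG mice after AB, and mRNA was selected by poly-T beads and sequenced on an Illumina instrument. The authors deposited raw counts of reads per gene in one table, which the study's methods say were made with featureCounts. Their processing notes name HISAT2, DESeq2 and the human build GRCh38, whereas the table lists mouse Ensembl genes, of which 53499 of 54532 have the start and end of GENCODE release M21 (GRCm38). 46 of the 47 genes matched in this way. The strand setting and the handling of reads with several matches are not given in the sources used here.

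Counts were tested with edgeR 4.0.16 (R 4.3.3) by the quasi-likelihood test, TG against NTG, with TMM scaling, the default filter on low counts by group and robust dispersions. P-values were adjusted by Benjamini-Hochberg over 14774 genes. CPM used the TMM-scaled library sizes, RPKM divided CPM by the gene length in the table in kilobases, and log2 CPM used a prior count of 2. A standard error is the log2 fold change divided by the square root of F. The scripts were tested on simulated data.

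The genes and lists were chosen with earlier results of these data known. Genes given with values were, by rule, the CDK inhibitors and D-type cyclins, the 3 of smallest p in each other role, those under an unadjusted p of 0.05, the most abundant per length of each role, and the 2 of smallest p in each direction of each wider list. Other genes were named after their values were seen. Library totals of 14863568 to 17581220 counts gave 11 counts or more per heart for each of the 47. No 2 libraries agreed within sampling noise (chi-square per gene of 15.8 or more). Alternatives were 3 other scalings, 2 other filters, non-robust dispersions, DESeq2 1.42.0, limma-voom (limma 3.58.1), the likelihood-ratio test, a replicate block and leaving out each heart.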

Additional observations from a re-analysis of the deposited data

How the results depend on the processing

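With 3 hearts a group, the common biological coefficient of variation was 18.7%, and the lowest count of a cell cycle gene in any heart was 11 (Ccnb1). No cell cycle gene was called in any setting with all 6 hearts, whereas the count over all genes depended on the test: 228 higher and 355 lower by DESeq2, 206 and 339 by the likelihood-ratio test, and 116 and 116 without a filter. Cell cycle genes at an unadjusted p under 0.05 were 0 higher under library size scaling 1 lower by limma-voom and 3 higher without a filter, where Ccnd1 was added. Library size scaling moved the median of all genes to -0.09, and, of 22 genes followed singly, turned the signs of Ccnb1 (-0.085), Cdk1 (-0.038), Cdkn1b (-0.040), Mki67 (-0.043) and Top2a (-0.044). The sign of Ccnb1 also turned without a filter (-0.0038) and with at least 10 counts in every library (-0.00062), and that of Top2a by limma-voom (-0.0045).

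The correlations of same-numbered deviations were 0.08, 0.17 and -0.25, and those of different-numbered ones ran from -0.25 to 0.17. With 3 hearts a group, these values cannot decide whether the replicate numbers pair the samples. A fit with a replicate block called 84 genes higher and 147 lower, and 0 cell cycle genes; at an unadjusted p under 0.05 it had 0 of them higher and 1 lower, and Top2a was at -0.0071.

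Leaving out one heart at a time, by edgeR and by DESeq2, gave 0 to 896 genes called higher and 0 to 877 lower, and 0 to 1 cell cycle genes called higher and 0 to 2 lower. Without NTG 1, DESeq2 called Cdk6 (-0.59), Cdkn1c (0.71) and Tyms (-1.09), beside 11.7% of all genes; without TG 2 it called Tyms (-1.24), beside 5.17%. Cell cycle genes at an unadjusted p under 0.05 were 0 to 5 higher and 1 to 5 lower. In edgeR without NTG 1 they were 5 higher (Ccnd2, Ccnd3, Cdkn1c, Mcm2, Mcm5) and 3 lower (Cdk6, Mcm6, Tyms), beside 27.0% of all genes, and without TG 2 they were 5 lower (Tyms, Prc1, Tpx2, Kif20a, Ccnb2), beside 19.3%. The median of the 47 ran from -0.24 to 0.04, that of the mitosis genes from -0.49 to 0.05, of S phase from -0.14 to 0.02, of the G1 genes from -0.07 to 0.17 and of the inhibitors from -0.05 to 0.14. Of the same 22 genes, those whose sign turned ranged from -0.36 to 0.71 (Ccnb1), -0.19 to 0.40 (Cdk1), -0.12 to 0.025 (Cdkn1a), -0.055 to 0.19 (Cdkn1b), -0.0055 to 0.70 (Cdkn1c), -0.036 to 0.22 (Cenpa), -0.28 to 0.31 (Mki67), -0.14 to 0.014 (Pcna) and -0.34 to 0.22 (Top2a). The causes were not tested. Tyms, Mcm2, Mcm5 and Cdk6 kept their direction in every alternative with all 6 hearts and in edgeR without each heart.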

Other observations

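A processed pseudogene copy of Pcna, Pcna-ps2, had 79 counts in NTG 1, 7 in NTG 2 and 5 in NTG 3, and 68, 10 and 82 in TG 1, TG 2 and TG 3. The 3 hearts with high values were those in which the mitosis genes were low, and Pcna itself lay between 37.4 and 46.1 CPM in all 6. Whether reads were shared between Pcna and this copy was not tested. The copies of cyclin B genes did not have this pattern: Ccnb2-ps had 14 to 24 counts in every heart and Ccnb1-ps 0 to 9. Pcna-ps2 was singled out after its values were seen.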
